A study of Homo sapiens with 6 samples.

Results

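Replication-dependent histone genes encode the core histones H2A, H2B, H3 and H4 and the linker histone H1 that package newly copied DNA. They were chosen by symbol, as protein-coding genes named H1-1 to H1-5 or as numbered members of the H2AC, H2BC, H3C and H4C series, with older names of the HIST1H to HIST4H kind matched to the present ones. The rule covers 68 symbols, and 62 of them had a row among the 34869 genes of the deposited table. They comprised 5 H1, 14 H2A, 18 H2B, 12 H3 and 13 H4 genes. By position, 48 lie in the large cluster on chromosome arm 6p22, 11 in the cluster at 1q21, 2 at 1q42 and 1 at 12p12. H2AC1, H2AC7, H2AC15, H3C11, H4C7 and H4C13 were not analysed here.

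The histone RNA was measured in NCI-H295R cells, an established line from a human adrenocortical carcinoma that makes adrenal steroids, grown in DMEM/F12 with serum and an insulin, transferrin and selenium supplement. All cells carried a lentivirus. It delivered a short hairpin RNA against TPD52 in 3 libraries (shTPD52) and a non-targeting hairpin in the 3 controls (shCtrl). The number of hairpin sequences, the time after transduction and the density or cell cycle state of the cultures were not given. The labels do not say whether the 3 replicates of a group came from separate cultures, and p-values therefore reflect the spread among these libraries, which may be technical.

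Histone messenger RNAs of this class are made mainly in S phase, when DNA is copied. In animals they end in a conserved stem-loop instead of the poly(A) tail of other messenger RNAs. The stem-loop is bound by SLBP, which takes part in processing, export, translation and decay of the transcript, and cleavage just beyond it needs the U7 small nuclear ribonucleoprotein. NPAT, a target of cyclin E with CDK2, promotes transcription of the clustered genes, and many H2A and H2B genes lie head to head and share the DNA between them. A few genes of the class can also be read through to a downstream poly(A) signal, which gives a longer, polyadenylated RNA. Whether the libraries were made from poly(A)-selected or ribosome-depleted RNA is not given in the sources used here and bears on which of these RNAs could be counted.

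The stem-loop is shown first because its place in a transcript separates the processed form from the read-through form. A search for a 16-base hairpin of this kind in GENCODE release 29 transcripts found one in 31 of the 62 genes. The capitals mark the 6-base stem arms around the 4-base loop, and 5 flanking bases stand on each side, written 5′ to 3′ as DNA. The 7 shown were chosen from the genes described below, to set H4 beside the other types and short beside long extensions, and others below, such as H2AC6, hold a hairpin too.
H2AC13: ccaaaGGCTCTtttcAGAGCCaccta
H2BC5: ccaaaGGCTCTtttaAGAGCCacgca
H3C10: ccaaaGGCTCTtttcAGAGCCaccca
H2BC21: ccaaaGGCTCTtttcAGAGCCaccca
H2AC25: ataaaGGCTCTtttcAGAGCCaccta
H4C9: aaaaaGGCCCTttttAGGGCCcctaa
H4C11: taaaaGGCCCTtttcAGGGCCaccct
The form in H2AC13, H3C10, H2BC21 and H2AC25 was found in 17 genes of the H2A, H2B and H3 types. The hairpin of H4C11 was found in 5 H4 genes and that of H4C9 in 3, so in these transcripts the H4 forms differed from the rest in the stem.

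In the annotated transcripts the RNA ran far past the hairpin in some genes and stopped soon after it in others. Beyond the last base of the stem lay 1729 bases in H2BC21, 769 in H3C10, 390 in H2AC25 and 212 in H4C9. In H2AC13 the annotated transcript ended 39 bases after the hairpin, as did the shorter transcript of H2BC5, and in H4C11 it ended 6 bases after it. Of the 31 genes with a hairpin, 23 had an annotated transcript that ran over 100 bases past it and 8 did not. The median level was 0.421 FPKM in the 23 and 0.963 FPKM in the 8, where FPKM is reads scaled to gene length in kilobases and to library size. The other 31 genes, among them H2BC12, H2BC11, H2AC20 and H1-2, had no hairpin in their annotated transcripts and a median of 0.370 FPKM. The annotated transcript of H2BC12, for example, has 381 bases. That says only that these transcript models do not reach it.

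Promoters are shown for the most abundant gene, for H2BC11, which changed in the same direction, and for H2AC20, which changed in the other. They are the 250 bases before the start site in RefSeq on GRCh38.p14, read 5′ to 3′ along the gene's strand. Capitals mark matches on either strand to the octamer ATTTGCAT, to TATAAA and to CCAAT, and overlapping matches run together.
H2BC12 (chr6:27146859-27147108, minus strand): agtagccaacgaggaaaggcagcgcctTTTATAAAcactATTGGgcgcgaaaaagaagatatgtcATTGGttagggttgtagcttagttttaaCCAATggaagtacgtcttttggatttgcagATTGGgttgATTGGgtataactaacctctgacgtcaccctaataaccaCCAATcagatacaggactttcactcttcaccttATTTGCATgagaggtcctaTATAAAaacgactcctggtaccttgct
H2BC11 (chr6:27132796-27133045, minus strand): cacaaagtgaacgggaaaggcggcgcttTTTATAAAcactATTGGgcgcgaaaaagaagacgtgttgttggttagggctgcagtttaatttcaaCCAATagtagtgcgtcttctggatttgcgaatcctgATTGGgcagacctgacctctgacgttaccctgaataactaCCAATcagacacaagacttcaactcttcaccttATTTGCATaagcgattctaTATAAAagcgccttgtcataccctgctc
H2AC20 (chr1:149886668-149886917, plus strand): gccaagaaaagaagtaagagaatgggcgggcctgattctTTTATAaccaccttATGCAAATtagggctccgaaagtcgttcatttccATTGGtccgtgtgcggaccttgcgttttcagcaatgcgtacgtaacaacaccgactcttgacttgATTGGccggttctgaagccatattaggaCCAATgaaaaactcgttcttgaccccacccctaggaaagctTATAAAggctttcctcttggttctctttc
Each held 1 octamer. H2BC12 held 3 TATAAA and 6 CCAAT matches, H2BC11 held 3 and 4, and H2AC20 held 2 and 3. All 3 motifs were present both in the promoter of the gene that rose and in those of the 2 that fell, but their places differed. In H2AC20 the octamer lay on the opposite strand, towards the end far from the start site. In H2BC12 and H2BC11 it read along the gene's strand, shortly before the last TATAAA. The bearing of this on the changes was not tested.

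Promoter windows of 300 bases, from 250 before the start to 50 after it, were found for 58 of the 62 genes, 62 windows in all. The octamer, the sequence bound by the POU factor OCT1, was in 40.3% of them and in 1.77% of the 35116 windows of all genes. It was in 75.0% of H2B and 69.2% of H2A windows, in 7.69% of H3 windows and in 0 of the 5 H1 and 11 H4 windows. TATAAA was in 67.7% against 11.5% of all windows. CCAAT was in 85.5% against 34.6%, with 18.2% of H4 windows holding it. A match describes letters in a window and is not a measured binding site.

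Most of the histone genes gave few reads. Only 18 of the 62 averaged 1 FPKM or more across the 6 libraries, the level required for testing, and 44 did not. None was at 0 in every library, 42 were above 0 in all 6, and 37 had at least 3 reads in each. A floor of 3 reads corresponds to 0.156 to 0.203 FPKM for a gene of 500 bases, and covers counting error only. The median gene stood at 0.407 FPKM. H4C11 was just inside the limit at 1.01 FPKM and H2AC11 just outside at 0.965 FPKM.

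**Figure D1:**
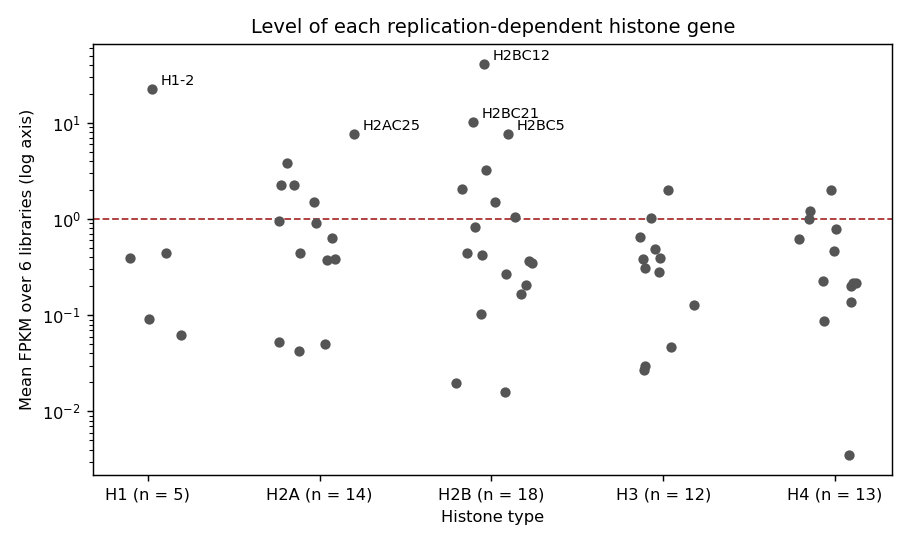
Mean FPKM over the 6 libraries (log axis) of each of the 62 histone genes, 1 point per gene, by histone type, with the dashed line at the 1 FPKM limit for testing. 5 genes, H2BC12, H1-2, H2BC21, H2BC5 and H2AC25, have a mean of at least 5 FPKM, and 44 lie under the line.

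A handful of genes made up most of the measured histone RNA. H2BC12, an H2B gene, took 27.7% to 36.2% of the summed FPKM of all 62 genes in a library, and H1-2, the H1 gene with the most RNA, took 13.8% to 24.0%. With H2BC21, H2BC5 and H2AC25 they held 66.3% to 71.5%. H2BC21 and H2AC25 are among the genes annotated with a long stretch beyond the hairpin. Of the 23 genes with a poly(A) signal (AATAAA or ATTAAA) in the last 50 bases of a transcript, 9 reached 1 FPKM, against 9 of the 39 without one. Of the 31 genes with no hairpin in their transcript models, 1 had such a signal. A model that stops short of the RNA's end can show none, so this contrast depends on the annotation.

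The libraries held 29544368 to 38396671 reads, worked back from the deposited FPKM, and the tested histone genes had 8 to 879 reads in a library. Mitochondrially encoded genes took 17.5% to 24.3% of reads, with the 3 shTPD52 libraries the highest, and a rescaling to the other reads is given below. On the first principal component, with 61.0% of the variance, shTPD52 replicate 2 lay at 0.291, apart from the other shTPD52 libraries at 27.3 and 35.3 and from shCtrl at -24.1 to -16.4. TPD52 itself fell by 0.65 on the log2 scale, from a mean of 1.30 FPKM to 0.640 FPKM (adjusted p = 0.0218, limma). Of 10 adrenocortical markers 9 reached 1 FPKM, and their sum was 399 to 422 FPKM in shCtrl and 457 to 467 FPKM in shTPD52. Of the markers of other cells given here, 0 of 5 endothelial, 0 of 3 chromaffin and 1 of 7 fibroblast genes (COL3A1) did.

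The comparison of shTPD52 with shCtrl asks whether histone RNA differed when TPD52 was lowered. Of the 18 tested genes 1 rose and 5 fell. H2AC20, an H2A gene at 1q21, rose 2.36-fold. H2BC12, H2BC11 and H2BC5 of the H2B type, H2AC13 of the H2A type and H3C10 of the H3 type, all at 6p22, fell to between 0.443 and 0.692 times the control mean. The other 12 did not pass. Those that fell were 27.8% of the 18 and the riser 5.56%, where 12.7% of all 12782 tested genes fell and 5.63% rose. The median log2 fold change of the 18 was -0.24, against -0.11 for all tested genes. After median-ratio scaling of the libraries these medians were -0.13 and 0.00, and 1 histone gene rose and 3 fell, where 8.47% of all genes rose and 8.12% fell. Quantile normalization also gave 1 and 3 (9.01% and 9.29% of all genes), and limma-voom on the recovered reads 1 and 4 (6.01% and 16.6%). Rescaling to reads outside mitochondrial genes gave 1 and 4 as well (7.64% and 9.51%).

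In bulk RNA, a smaller share of cells in S phase and less histone RNA per cell cannot be told apart. Leaving out 1 library changed the number of calls more than any change of scaling. Without shTPD52 replicate 2, the library nearest to the controls, 2 rose and 6 fell, and that fit called 12.6% of all genes higher and 32.9% lower. No histone gene passed limma when shTPD52 replicate 1 was left out (7 had an unadjusted p under 0.05), nor without replicate 1 or 3 of shCtrl (6 and 7). Calls were few over all genes in these 3 fits, where 0.509%, 0.775% and 0.376% of tested genes rose and 0.735%, 0.994% and 0.305% fell. Only H2BC11 passed without shCtrl replicate 2, where 1.4% of all genes rose and 2.12% fell. H2AC13, H2BC12 and H2BC11 passed without shTPD52 replicate 3, where 2.52% rose and 4.5% fell.

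**Figure D2:**
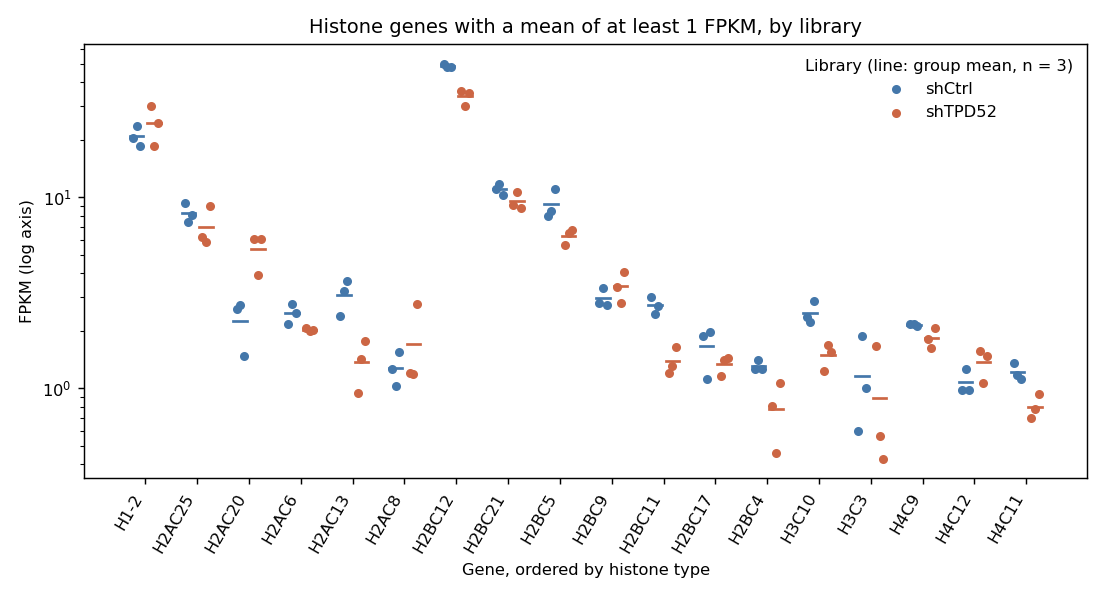
FPKM (log axis) of the 18 tested histone genes, ordered by histone type, 1 point per library, shCtrl in blue and shTPD52 in red, with the line at the group mean (n = 3). H2AC20 is higher in every shTPD52 library, and 9 genes, among them H2BC12, H2BC11 and H2AC13, are lower in every one.

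The H2B genes had the largest summed FPKM of the 5 types in every library, and 3 of the 5 genes that fell were H2B genes. They also made up 7 of the 18 tested genes. H2BC12 (HIST1H2BK, ENSG00000197903, GRCh38 chromosome 6, 27146418 to 27146798, minus strand) was at 49.98, 48.2 and 48.1 FPKM in the control libraries 1, 2 and 3, and in the knockdown libraries 1, 2 and 3 the values were 36.2, 29.9 and 35.3 FPKM. The groups did not overlap, and the lowest value was in shTPD52 replicate 2, the library nearest to the controls over all genes. The counts behind these values were 730 to 879 reads in shCtrl and 529 to 670 in shTPD52. In the H2BC12 transcript, 22.6% of the 50-base windows were also found in other histone genes, 18.7% in H2BC6. H2BC12 fell from 48.8 ± 1.04 to 33.8 ± 3.38 FPKM (SD, n = 3 each). The fall was -0.53 on the log2 scale, with an SE of 0.09 and an adjusted p of 0.0138 (limma, Benjamini-Hochberg). After median-ratio scaling the log2 fold change was -0.41 and the adjusted p, by limma, 0.0531.

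H2BC11 (HIST1H2BJ, ENSG00000124635, chromosome 6, 27125897 to 27132750, minus strand) was at 3.01, 2.44 and 2.70 FPKM in shCtrl and at 1.20, 1.31 and 1.64 FPKM in shTPD52. Every knockdown library was below every control library, and the counts were 78 to 108 reads in shCtrl and 37 to 66 in shTPD52. H2BC11 fell to 0.510 times the control mean (log2 fold change -0.77, SE 0.14, limma adjusted p = 0.0150). H2BC5 (HIST1H2BD, ENSG00000158373, chromosome 6, 26158146 to 26171349, plus strand) stood at 7.94, 8.45 and 11.1 FPKM in shCtrl and at 5.63, 6.51 and 6.76 FPKM in shTPD52. The groups were apart, with shCtrl replicate 3 the highest. H2BC5 fell to 0.688 times the control mean (log2 fold change -0.50, SE 0.14, limma adjusted p = 0.0439), and the call was the weakest of the 6. It ended after median-ratio scaling (log2 fold change -0.38, limma adjusted p = 0.0969).

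The other tested H2B genes did not pass. H2BC21, the 1q21 gene with the 1729-base extension, stood at 11.1, 11.8 and 10.3 FPKM in shCtrl and at 9.16, 10.6 and 8.80 FPKM in shTPD52. The groups overlapped through shTPD52 replicate 2, and the log2 fold change was -0.21 (limma adjusted p = 0.163). The remaining 3, H2BC4, H2BC9 and H2BC17, fall outside the rule for naming genes and were named after their values were seen. H2BC4 had the lowest levels, 1.26, 1.41 and 1.27 FPKM in shCtrl and 0.812, 0.460 and 1.06 FPKM in shTPD52. Its groups did not overlap, but the limma adjusted p was 0.0895. H2BC9 was the single tested H2B gene with a positive log2 fold change, 0.17 (limma adjusted p = 0.409).

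Among the H2A genes, 1 rose and 1 fell. H2AC20 (HIST2H2AC, ENSG00000184260, chromosome 1, 149886975 to 149887364, plus strand) stood at 2.60, 2.71 and 1.48 FPKM in shCtrl. It stood at 6.03, 3.94 and 6.06 FPKM in shTPD52, with replicate 2 between the controls and the other knockdown libraries. The counts were 27 to 44 reads in shCtrl and 71 to 115 in shTPD52. H2AC20 rose from 2.26 ± 0.680 to 5.34 ± 1.22 FPKM (SD, n = 3 each), or by 1.09 on the log2 scale with an SE of 0.23 (adjusted p = 0.0214, limma). Its size was 1.20 after median-ratio scaling, and it also passed there (limma adjusted p = 0.0235). Of the 50-base windows in its transcript, 30.5% were also found in H2AC18, another gene of the 1q21 cluster, and the authors' handling of reads that map to several places is not given in the sources used here.

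H2AC13 (HIST1H2AI, ENSG00000196747, chromosome 6, 27808199 to 27808701, plus strand) stood at 2.38, 3.25 and 3.67 FPKM in shCtrl and at 0.942, 1.42 and 1.76 FPKM in shTPD52. The groups did not overlap, and the counts were 41 to 68 and 14 to 34 reads. H2AC13 fell to 0.443 times the control mean (log2 fold change -0.95, SE 0.20, limma adjusted p = 0.0233). Its value is uncertain, since 62.3% of its 50-base windows were shared with H2AC14. H2AC25, alone with H2BC26 at 1q42, stood at 9.29, 7.45 and 8.12 FPKM in shCtrl and at 6.16, 5.85 and 9.05 FPKM in shTPD52. The groups overlapped through shTPD52 replicate 3 (log2 fold change -0.24, limma adjusted p = 0.304). H2AC6 stood at 2.17 to 2.76 FPKM in shCtrl and at 1.99 to 2.07 FPKM in shTPD52, apart but not past the test (limma adjusted p = 0.190). H2AC8, outside the rule for naming genes, had a log2 fold change of 0.25 and a limma adjusted p of 0.507.

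Few H3 and H4 genes had enough RNA to test. H3C10 (HIST1H3H, ENSG00000278828, chromosome 6, 27810064 to 27811300, plus strand) stood at 2.36, 2.22 and 2.87 FPKM in shCtrl and at 1.23, 1.68 and 1.56 FPKM in shTPD52, with no overlap. It shared no 50-base window with another gene of the class. H3C10 fell to 0.600 times the control mean (log2 fold change -0.58, SE 0.14, limma adjusted p = 0.0326), a call that quantile normalization ended (limma adjusted p = 0.0610). H3C3 ranged from 0.600 to 1.88 FPKM in shCtrl and from 0.429 to 1.67 FPKM in shTPD52, a spread as wide as its level (limma adjusted p = 0.593). H3C2, next in level, had a mean of 0.658 FPKM and was not tested.

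None of the 3 tested H4 genes passed limma, and 1 had an unadjusted p under 0.05. H4C9 was at 2.16, 2.17 and 2.12 FPKM in shCtrl and 1.80, 1.63 and 2.07 FPKM in shTPD52, apart by a small margin (log2 fold change -0.19, limma adjusted p = 0.276). H4C11 was at 1.35, 1.18 and 1.12 FPKM in shCtrl and 0.696, 0.775 and 0.937 FPKM in shTPD52 (log2 fold change -0.40, limma adjusted p = 0.0885). It passed in 2 of the 18 alternative fits that tested it. H4C12 gave overlapping groups and a log2 difference of 0.24 (limma adjusted p = 0.298). Reads of H4C11 and H4C12 could hardly be separated, as all of the 50-base windows of H4C12 were found in H4C11, and both directions are therefore uncertain.

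H1-2, a somatic linker histone, was the single H1 gene above the limit. It stood at 20.4, 23.6 and 18.7 FPKM in shCtrl and at 30.0, 18.6 and 24.6 FPKM in shTPD52. The shTPD52 libraries included the highest value, in replicate 1, and the lowest, in replicate 2. The log2 fold change was 0.20 (SE 0.17, limma adjusted p = 0.414), and without shTPD52 replicate 2 it was 0.38 and passed (limma adjusted p = 0.0425). H1-4 and H1-3 had means of 0.439 and 0.389 FPKM and were not tested.

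**Figure D3:**
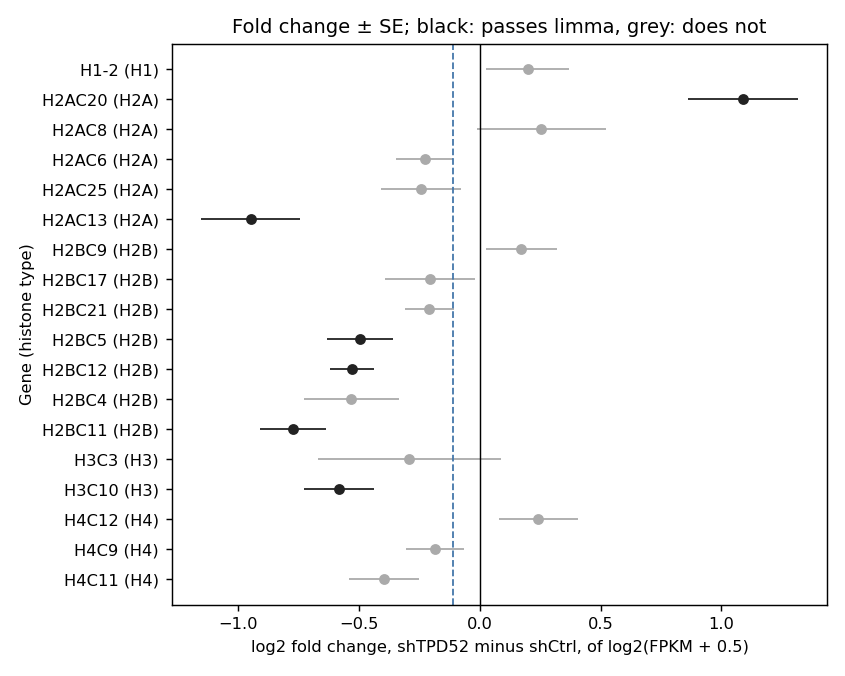
Log2 fold change of shTPD52 minus shCtrl, on the log2(FPKM + 0.5) scale, with its standard error, for the 18 tested histone genes; black genes pass limma at an adjusted p under 0.05 and grey ones do not. The dashed line marks the median of all 12782 tested genes, -0.11, and H2AC20 at 1.09 is the 1 black point to the right of 0.

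In 9 of the 18 genes all shTPD52 libraries were lower than all controls, and in 1 all were higher. Of all tested genes, 28.3% were apart in the lower direction and 13.8% in the higher. After median-ratio scaling H2AC6 and H4C9 overlapped, which left 7 lower and 1 higher, where 20.6% and 20.7% of all genes were apart. Across knockdown libraries the median histone gene lay at -0.30, -0.37 and -0.22 on the log2 scale relative to the control mean in replicates 1, 2 and 3. The median of all tested genes lay at -0.10, -0.03 and -0.18. Replicate 2, nearest to the controls over all genes, thus had the lowest histone median.

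Histone genes are short, and short genes as a whole were called higher more often than lower. Of 1288 tested genes of at most 1 kb, 8.85% rose and 6.83% fell, with a median log2 fold change of 0.02. Of the 12 tested histone genes of at most 1 kb, 1 rose and 3 fell, with a median of -0.27. After each library's trend on length and GC content was removed, 1 histone gene again rose and 5 fell, where 10.7% of all genes rose and 10% fell. The median was then -0.28 for the histone genes and 0.01 for all genes.

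By chromosome cluster, 15 of the 48 genes at 6p22 were tested, which is most of the 18 tested in all. Of these 15, 5 fell and none rose (limma, with 7 negative and 0 positive at an unadjusted p under 0.05). Over all tested genes 12.7% fell and 5.63% rose. The median log2 fold change of the 15 was -0.29. Of the 11 genes at 1q21, 2 were tested, H2AC20 and H2BC21, which differed in sign. The single gene tested at 1q42, H2AC25, did not pass, and H4C16 at 12p12 was under the limit. The difference between the clusters was not tested.

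Summed over all genes of a type, the groups did not overlap for H2B and H3 and overlapped for the other types. The H2B genes summed to 81.4, 79.9 and 81.6 FPKM in the shCtrl libraries and to 61.3, 55.8 and 61.6 FPKM in the shTPD52 libraries, 0.736 times the control mean. H2BC12 alone did not set this, since the other 17 H2B genes summed to 32.2 ± 1.11 FPKM in shCtrl and 25.8 ± 0.640 FPKM in shTPD52 (SD, n = 3 each), again with no overlap. The H3 genes summed to 6.60 ± 0.638 and 4.91 ± 0.508 FPKM, also apart. The H1 sums were 21.7 ± 2.91 and 25.5 ± 5.57 FPKM, the H2A sums 21.3 ± 0.656 and 21.3 ± 4.45 FPKM and the H4 sums 7.24 ± 0.952 and 7.13 ± 1.43 FPKM, and all 3 overlapped. All 62 genes summed to 138 ± 2.84 FPKM in shCtrl and 118 ± 13.5 FPKM in shTPD52, with no overlap. Without H2BC12 the totals were 89.0 ± 2.92 and 84.7 ± 10.2 FPKM and did overlap. These sums follow their most abundant genes and carry no test. They are of the deposited FPKM, without median-ratio scaling. The factors of that scaling, by which values are divided, were 1.04, 1.06 and 1.05 in shCtrl replicates 1, 2 and 3. In shTPD52 they were 0.961, 1.02 and 0.905. Divided by these factors, the sums of all 62 genes overlapped between the groups. The H2B sums stayed apart, and the H3 sums did so by a very small margin.

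**Figure D4:**
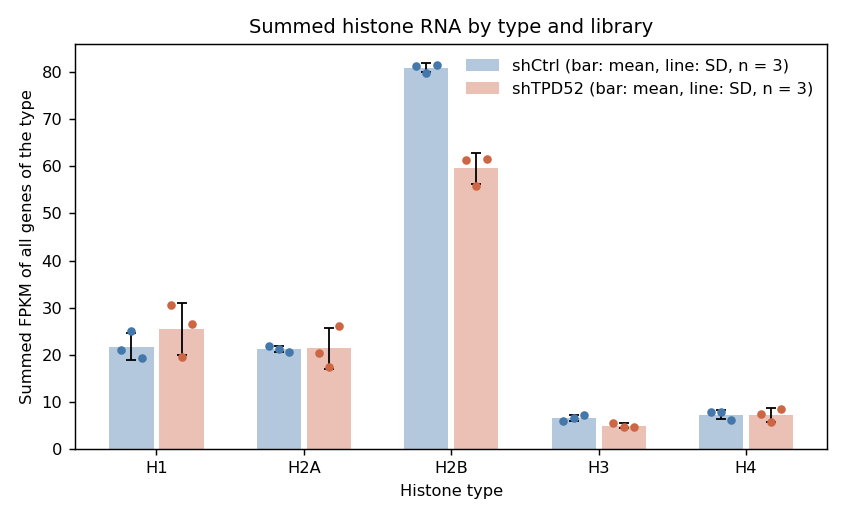
Summed FPKM of all genes of each histone type, bars at the group mean, lines at 1 SD and 1 point per library (n = 3 per group). The H2B sums of the shTPD52 libraries, 55.8 to 61.6 FPKM, lie below those of shCtrl, 79.9 to 81.6 FPKM, while the H1, H2A and H4 sums overlap.

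Head-to-head H2A and H2B genes let both sides of a shared promoter be compared within a library. The table held both genes of 9 such pairs, with 218 to 330 bases between their annotated starts. This comparison was chosen after the values were seen. H2AC20 and H2BC21, 322 bases apart, share the stretch printed for H2AC20. H2AC20 rose, and H2BC21 had a log2 fold change of -0.21. The log2 difference of H2AC20 minus H2BC21 was -1.90, -1.93 and -2.45 in shCtrl and -0.57, -1.32 and -0.50 in shTPD52. The mean difference was thus higher by 1.30 in shTPD52, with no overlap. The exact two-sided permutation p was 0.1, the smallest that 3 against 3 libraries allow, and 0.2 after adjustment over the 2 pairs tested.

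The second pair with both genes tested was H2AC6 and H2BC4, whose log2 difference was higher by 0.30 in shTPD52 (exact two-sided permutation p = 0.3, adjusted 0.3). In the other 7 pairs 1 or both genes were under the limit and no test was made. H2AC11, opposite H2BC11, had means of 0.993 ± 0.260 and 0.936 ± 0.108 FPKM (SD, n = 3 each) in the 2 groups, where H2BC11 went from 2.72 to 1.38 FPKM. H2BC13, opposite H2AC13, had means of 0.922 and 0.748 FPKM in shCtrl and shTPD52, with overlap. H2AC12, opposite H2BC12, had means of 0.213 and 0.528 FPKM, near the floor of 3 reads in several libraries. In that pair H2BC12 was over 48 FPKM and H2AC12 under 1 FPKM in every control library.

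**Figure D5:**
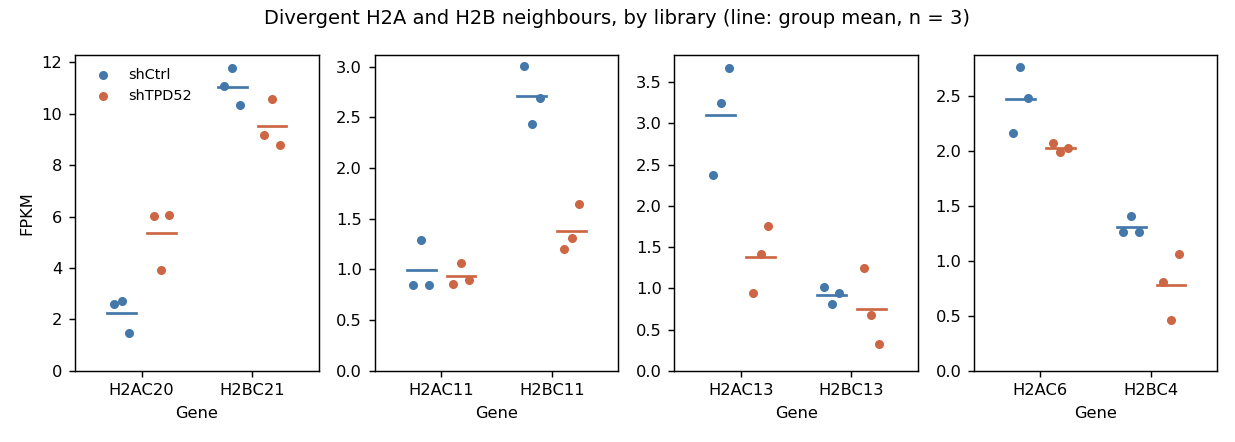
FPKM by library of the genes of 4 head-to-head H2A and H2B pairs, each panel with its own linear axis from 0, shCtrl in blue and shTPD52 in red, lines at the group mean (n = 3). In the first panel H2AC20 is higher in every shTPD52 library while the H2BC21 groups overlap.

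Of the 44 genes under the limit, none had an adjusted p under 0.05 in a fit of all genes with any reads (limma with Benjamini-Hochberg adjustment). That fit called only 0.508% of its 34869 genes higher and 1.02% lower, so few calls among 44 genes would be looked for. H1-1 alone of the 44 had an unadjusted p under 0.05 (limma, 0.0494, adjusted 0.260). Several stood on so few reads that no direction could be read. H2BC14 was at 0 in the 3 shCtrl libraries and at 1.01, 0.117 and 0.111 FPKM in the shTPD52 libraries, the last 2 under the floor. In 6 genes every library had under 3 reads. Overlapping genes add to the uncertainty, since H3C14 with H4C14 and H3C15 with H4C15 share 173 exon bases on opposite strands, and no strand setting is given in the sources used here. The near-identical copies H2AC18 with H2AC19, H3C14 with H3C15 and H4C14 with H4C15 cannot be separated either.

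Replication-independent histone genes, which are expressed outside S phase and mostly carry poly(A) tails, form a comparison list. Of 11 tested, 2 rose and none fell (limma, with 0 negative at an unadjusted p under 0.05), and the median log2 fold change was 0.03. Over all tested genes 5.63% rose and 12.7% fell. The difference from the histone genes above was not tested. H2AX, the variant phosphorylated at DNA breaks, whose RNA exists in both stem-loop and polyadenylated forms, stood at 67.0, 67.2 and 65.6 FPKM in shCtrl and at 126, 85.5 and 115 FPKM in shTPD52. Replicate 2 was again nearest to the controls, and H2AX rose 1.63-fold (log2 fold change 0.69, SE 0.14, limma adjusted p = 0.0194). H2AJ rose from 1.97 to 3.14 FPKM (log2 fold change 0.57, limma adjusted p = 0.0284). H2AZ1, which encodes H2A.Z, differed by 0.18 on that scale (adjusted p = 0.268). H3-3A and H3-3B, which both encode H3.3, had log2 fold changes of -0.16 and 0.02 (limma adjusted p = 0.140 and 0.868).

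Among 31 genes for transcription, 3′ processing and decay of histone messenger RNA, 1 rose and 3 fell, with a median of -0.09. The shares over all tested genes were 5.63% and 12.7%. SLBP stood at 68.8, 67.4 and 67.8 FPKM in shCtrl and 69.4, 63.6 and 64.2 FPKM in shTPD52, with overlap (log2 fold change -0.05, limma adjusted p = 0.629). UPF1, a helicase that takes part in the decay of histone messenger RNA, fell from 14.4 ± 0.469 to 10.0 ± 0.960 FPKM (SD, n = 3 each; limma adjusted p = 0.0162). On the log2 scale E2F1, an S-phase transcription factor, fell by 0.27 (limma adjusted p = 0.0368), and EXOSC10, an exosome nuclease named after its value was seen, fell by 0.39 (limma adjusted p = 0.0449). The length and GC correction took UPF1 from -0.51 to -0.19 and ended its call (limma adjusted p = 0.0642), and median-ratio scaling took E2F1 to -0.15 and ended its call (limma adjusted p = 0.203). SSB, which encodes the La protein, rose by 0.41 (limma adjusted p = 0.0370). NPAT was at 3.27, 3.52 and 3.01 FPKM in shCtrl and 1.95, 3.14 and 1.53 FPKM in shTPD52, and LSM11, a subunit of the U7 particle, at 2.56 to 2.65 and 1.22 to 2.26 FPKM. Neither passed (limma adjusted p = 0.106 and 0.0672), and both lay lower in shTPD52 replicates 1 and 3 than in replicate 2. LSM11 did pass with limma-voom (adjusted p = 0.0376) and among protein-coding genes only (limma adjusted p = 0.0401).

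Of 29 S-phase genes, none rose and 1 fell by limma (2 positive and 6 negative at an unadjusted p under 0.05), with a median log2 fold change of -0.05. Over all tested genes 5.63% rose and 12.7% fell. The 1 was UHRF1, a reader of hemimethylated DNA, which fell from 9.67 ± 0.405 to 6.59 ± 1.45 FPKM (SD, n = 3 each; limma adjusted p = 0.0411). Correction for length and GC content brought UHRF1 to -0.38 on the log2 scale and ended its call (adjusted p = 0.0625 by limma), as did quantile normalization (adjusted p = 0.0508 by limma). SLBP is in this list too. The histone genes' median of -0.24 stood below that of these 29 genes, and the difference was not tested.

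Of 30 tested histone chaperone genes, 5 rose and 6 fell, with a median of -0.04, where 5.63% of all tested genes rose and 12.7% fell. SET, which binds histones and inhibits their acetylation, rose 1.43-fold from 80.3 to 115 FPKM (limma adjusted p = 0.0116). NASP, a carrier of linker histone and of H3 with H4, rose 1.35-fold from 27.9 to 37.6 FPKM (limma adjusted p = 0.0181). UBN1, a subunit of the HIRA complex that deposits H3.3, fell from 7.67 to 4.55 FPKM (limma adjusted p = 0.0166). Chaperones of the same list thus moved in both directions.

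RNAs that lack a poly(A) tail bear on how the libraries captured such RNA. Of 16 listed, 6 had a row and 3 were tested, and 2 of these rose, where 5.63% of all tested genes rose. SNORD3A, the U3 small nucleolar RNA, stood at 2.96, 2.76 and 1.71 FPKM in shCtrl and at 6.15, 3.53 and 6.33 FPKM in shTPD52 (log2 fold change 0.96, limma adjusted p = 0.0356). MALAT1, a nuclear RNA whose end is a triple helix, rose 1.36-fold (limma adjusted p = 0.0449), a call that ended after quantile normalization (log2 fold change 0.33, limma adjusted p = 0.119). RN7SL1, the RNA of the signal recognition particle, had means of 102 ± 23.4 and 110 ± 48.4 FPKM (SD, n = 3 each) in shCtrl and shTPD52 and did not pass. The part of capture of RNA without a tail in the histone values was not tested.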

How the data were processed

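Per the labels' protocols, TRIzol was used to extract RNA and the VAHTS Universal V6 kit to make paired-end libraries. The deposited table holds FPKM, computed by the authors for 34869 genes in 6 libraries. HISAT2 2.2.1, featureCounts 2.0.3 and GRCh38 are named per the submitters' processing notes. The annotation release, the strand setting and the handling of multiply mapped reads were not given, and they bear on short, near-identical genes such as these.

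Genes that averaged 1 FPKM or more across the 6 libraries were fitted with limma 3.58.1 in R 4.3.3, with an intensity trend, on log2(FPKM + 0.5) of the deposited values. Tests were two-sided, p-values were adjusted by Benjamini and Hochberg over all 12782 genes, and the threshold was 0.05. Fold changes are differences on the log2(FPKM + 0.5) scale, which understates changes of genes with low values. Ratios are of mean FPKM. TPD52 lies under the limit and was added to a fit of 12783 genes.

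Reads were worked back from FPKM with gene lengths that gave whole reads within 0.02. The lengths came from GENCODE 29 for 28 histone genes, from RefSeq for 28 and by search for 6, H2BC12 and H2BC11 among them. Over all 34869 genes, 15019 lengths were found by search and 326 genes had none that fitted. The limma-voom fit, the length and GC correction and the 1 kb comparison rest on these lengths. Odd counts were 28.0% to 31.2% of those between 1 and 20 reads, a pattern that counting each mate as a read would leave, so reads may stand for fewer fragments. Gene coordinates are those of GENCODE 29 on GRCh38. Stem-loops were sought in GENCODE 29 transcripts, and promoters were taken from RefSeq on GRCh38.p14.

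The genes named are those that passed, the 3 most abundant and the most changed of each histone type, TPD52, SLBP, NPAT, LSM11, H2AX, H2AZ1, H3-3A, H3-3B and up to 3 passing genes of each list. The histone genes, the 5 lists and these rules were chosen with earlier results of these data known. The script was tested on simulated data with known changes. The 19 alternatives were other pseudocounts, filters, scalings and priors, a length and GC correction, limma-voom, a replicate block, protein-coding genes only and leaving out each library.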

Additional observations from a re-analysis of the deposited data

How the results depend on the processing

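The count of 1 histone gene higher and 5 lower held within 1.5 times under both other pseudocounts (0.1 and 1), rescaling to reads outside mitochondrial genes, the length and GC correction, limma-voom, limma without the trend or with a robust prior, and protein-coding genes only. Without a filter, 0 were higher and 1 lower among all 62, and with a filter of 5 FPKM 0 were higher and 2 lower among the 5 tested, a limit that leaves out H2AC20. Of all genes, those fits called 0.508% and 1.02%, and 9.3% and 18.2%. Median-ratio scaling and quantile normalization each gave 3 lower. Among protein-coding genes only, H2BC4 and H4C11 passed as lower too (limma adjusted p = 0.0476 and 0.0416), where 6.95% of all genes rose and 18.4% fell. H4C11 also passed in limma without the trend (adjusted p = 0.0485), where H2BC5 did not. Leaving out 1 library gave 0 to 2 higher and 0 to 6 lower, all by limma with 2 libraries left in a group. H2BC12 passed in 14 of 19 alternatives, H2BC11 in 14 of 18, H2AC13 in 13 of 18, H2AC20 in 12 of 18, H3C10 in 11 of 18 and H2BC5 in 8 of 19, and none of them changed sign. In the comparison lists E2F1 failed in 10 of 19, UHRF1 in 9 of 19, MALAT1 in 7 of 18 and UPF1 in 5 of 19. Their adjusted p ran from 0.00216 to 0.0749 for H2BC12, from 0.00386 to 0.0880 for H2AC20 and from 0.0207 to 0.148 for H2BC5. The sign of SLBP turned with median-ratio scaling (0.073) and with rescaling outside mitochondrial genes (0.026). The sign turned also for H3-3B with quantile normalization (-0.065) and without shCtrl replicate 3, and for H3C3 without shCtrl replicate 2. With 1 library left out, H3-3B ran from -0.018 to 0.059 and H3C3 from -0.67 to 0.0038. The causes were not tested.

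Whether replicate numbers pair the samples was not settled. The deviations of same-numbered libraries correlated at 0.045, 0.248 and 0.022 for replicates 1, 2 and 3. For replicates 2 and 3 this was higher than with other numbers, and for replicate 1 it was not. A fit with the replicate block again called 1 histone gene higher and 5 lower (7.09% and 16.9% of all genes). With it NPAT and LSM11 passed (adjusted p = 0.0453 and 0.0493 by limma) and E2F1 did not (0.0529). The limit on FPKM leaves out most of the class: 44 of the 62 genes lie under 1 FPKM and were therefore not tested. It is not a limit on reads, since the untested H2AC11 had 57 to 89 reads in a library and the tested H4C11 8 to 18.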
